A study of Mus musculus with 6 samples.

Results

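The clustered protocadherins are a family of cadherin-like cell surface proteins whose genes lie in tandem on mouse chromosome 18, in an alpha, a beta and a gamma cluster. Their members in this data set were chosen by symbol, as every listed gene whose name starts with Pcdha, Pcdhb or Pcdhg, which gave 24 of 38355 listed genes. The family as a whole was selected on measured values, because the difference between the ages in these same samples was known when it was picked, Pcdhb8 in particular. Every difference between the ages in family members is therefore given as a description, without a P-value, and supports nothing. RNA sequencing of polyadenylated RNA was performed on whole cortical hemispheres of C57BL/6 mice at 6 months (3 brains) and 16 months (3 brains), with no other treatment or allele in either group. The comparison asks which transcripts differ between the young adult and the aged cortex. Each sample is 1 mixture of all cortical cells, so fewer cells of a type and less RNA per cell cannot be told apart.

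A neuron expresses a small combination of clustered protocadherins, picked by a largely random choice of promoters that involves DNA methylation, the insulator protein CTCF and the cohesin ring. The proteins bind like with like across membranes, and the combination serves as a surface identity by which the neurites of one cell recognise and avoid each other. In the alpha and gamma clusters each variable exon with its own promoter is spliced to constant exons that all genes of that cluster share and that encode the common cytoplasmic end. Beta genes consist of a single coding exon and have no constant part, and the C-type genes at the ends of the alpha and gamma clusters are used more uniformly than the others.

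The 3 clusters were not covered alike. The GENCODE M21 annotation of GRCm38 holds 58 clustered protocadherin genes, of which 14 are alpha, 22 beta and 22 gamma. All 22 beta genes were listed in the count tables, but only 1 alpha and 1 gamma gene were. All 34 unlisted genes carry identifiers above the highest one listed, as do 18813 annotated genes in all, none of which is listed (0 of them), so the counting used an older set of gene models. The alpha row (ENSMUSG00000007440) is named Pcdha11 and spans chr18:37005203-37187657. The gamma row (ENSMUSG00000023036) is named Pcdhgc4, a C-type gene, and spans chr18:37815079-37841873. Which exons the older models gave to these rows is not given in the sources used here. In the M21 models, 53.5% of the 5359 transcript bases of Pcdha11 are near-identical (at least 97% over 100 bases) to 9 other alpha entries, and 42.2% of the 5024 bases of the Pcdhgc4 transcript to those of 23 other genes, most of them gamma genes. As no other alpha or gamma gene had a row to make a shared read ambiguous, reads from the constant exons of any gene of the cluster could be counted on these rows. Both rows are read below as 1 value per cluster and sample, and neither is given a level per length.

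The beta genes could be read one by one. They occupy chr18:37264938-37524479, a span of 259.5 kb, all on the plus strand, and each is a single exon of between 2588 and 8695 bases. Pcdhb21 and Pcdhb22 overlap by 455 bases, in which a read cannot be given to either. Pcdhb12 shares 63.5% of its transcript with a second annotated transcript, Gm37446, and whether this affected its counts was not tested. No other beta transcript had a near-identical copy at that setting. The gaps between neighbours are mostly a few kb, with 42.3 kb between Pcdhb8 and Pcdhb9 as the longest and 0.01 kb between Pcdhb17 and Pcdhb18 among the shortest. The library kit does not mark strand and the strand setting is not given in the sources used here.

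Between 29797253 and 46519280 counts per sample fell on genes. Levels are given as counts per 1000000 counts on genes (CPM) after TMM scaling of the libraries, and a gene was tested when its counts were high enough in at least 1 age. The aged replicates 1 and 2 stood apart from the rest. How far a gene lay from its age mean went up with GC content in replicate 1 and down with it in replicate 2 (r = 0.59 and −0.58 across genes), against −0.13 to 0.16 in the other samples. The 9 markers of excitatory cortical neurons were abundant in every sample and summed to 4549 to 4809 CPM at 6 months and 4723 to 5424 CPM at 16 months, with none past the threshold (0 of 9 by edgeR's quasi-likelihood test, 2 of 9 at an unadjusted P under 0.05, 0 by DESeq2). The share of all tested genes at an unadjusted P under 0.05 is not given here. Counts at that threshold, here and below, therefore have no general share beside them. Markers of some tissues next to the cortex differed between the ages. In edgeR's quasi-likelihood test, 4 of 6 thalamic markers and 3 of 6 markers of the dentate gyrus were higher at 16 months (adjusted P under 0.05). Of all tested genes, 1.67% were called in either direction. Of the striatal markers none was called (0 of 6 by edgeR, 0 at an unadjusted P under 0.05, 0 by DESeq2). They summed to 453 to 461 CPM at 6 months and 471 to 498 CPM at 16 months. The thalamic list summed to 184 to 192 CPM at 6 months and 191 to 220 CPM at 16 months, with its marker Shox2 at 4 counts in each young sample and 48 to 65 in the aged ones. The dentate gyrus list summed to 234 to 241 CPM and 252 to 282 CPM. Of the choroid plexus markers, 1 of 6 (Ttr) was called, as higher, and that list summed to 16.8 to 17.8 and 25.2 to 28.2 CPM. The astrocyte, microglia and oligodendrocyte precursor lists held 1 called gene each by edgeR, Gfap and Aif1 lower and Gpr17 higher at 16 months. By DESeq2 these lists held 4, 2 and 2 called genes. In the astrocyte list 3 of 7 markers were lower at 16 months, while Aldh1l1, Slc1a3, Slc1a2 and Gja1 were higher, without overlap between the ages. In the microglia list 4 of 7 were lower, and Csf1r was higher without overlap. Of the 7 interneuron markers, 2 were lower at 16 months, and Pvalb was the only one called. Pvalb gave 18.4 ± 0.761 CPM at 16 months against 42.6 ± 1.03 CPM at 6 months (SD, n = 3). Gad1 was higher without overlap, and the median log2 fold change of the list was 0.07. The part of these tissues and cells in the values of the protocadherins was not tested.

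As whole clusters, the beta genes were lower in the aged cortex and the alpha and gamma rows were not. The 22 beta genes together gave 214, 219 and 218 CPM in the young samples 1 to 3 and 179, 193 and 184 CPM in the aged ones. Every aged sample lay below every young one, and the mean was 14.6% lower (217 ± 2.36 against 185 ± 7.39 CPM, SD, n = 3). The alpha row gave 179, 175 and 177 CPM in the young and 184, 196 and 190 CPM in the aged samples. Here the aged samples lay above the young ones, by a small margin, with a log2 fold change (16 over 6 months) of 0.10 ± 0.05 (SE). The gamma row, the most abundant of the family, gave 561, 523 and 533 CPM in the young and 663, 556 and 595 CPM in the aged samples. The ages overlapped, and the log2 fold change was 0.17 ± 0.07. The highest gamma value came from aged replicate 1, the sample whose deviations rose with GC content. The longest M21 transcript of Pcdhgc4 has a GC content of 54.3%, the highest of the family's rows. The GC content of what was counted on the row is not known, and its part in the values was not tested. Neither row was past the threshold used for the calls below by edgeR or by DESeq2. The gamma row passed it, as higher, in 4 of 14 alternative settings. Among them were offsets for GC content and length, alone (14.2% of all tested genes called) and with the replicate number as a block (19.3%). Another was the fit without aged replicate 2 (12.7%). The main fit called 1.67%. The alpha row passed the threshold in 1 setting, the offsets with the replicate block. The gamma value rested on aged replicate 1 in part, with a log2 fold change of 0.0945 without that sample and 0.223 without aged replicate 2.

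**Figure D1:**
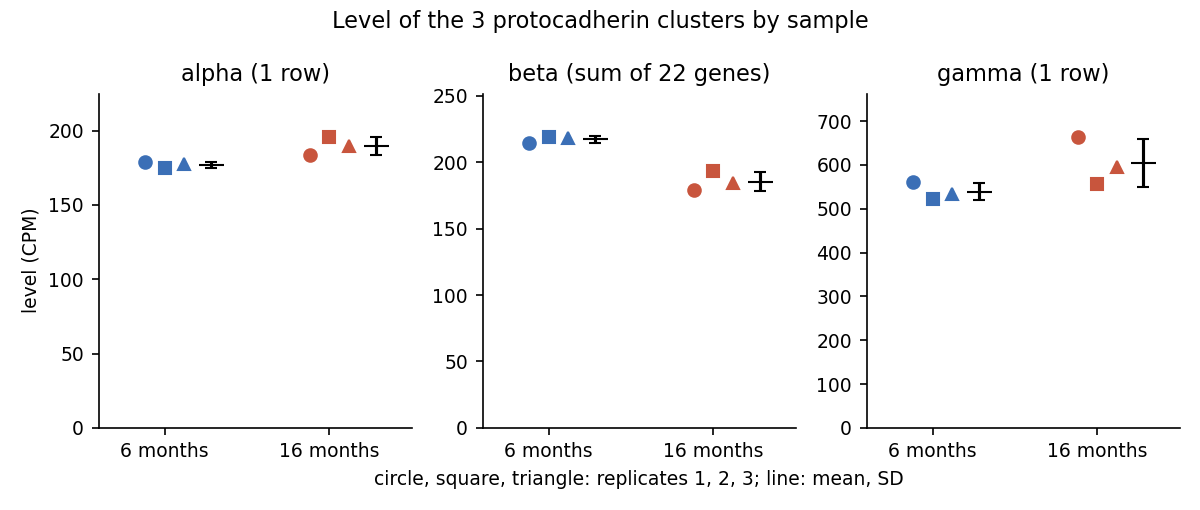
Level of the alpha row, the summed beta genes and the gamma row in each sample, in CPM on axes that start at 0; points are samples (circle, square and triangle for replicates 1 to 3), and the black line and bar are the mean and SD of 3 samples. The 3 aged samples lie below the young ones in the beta panel (179 to 193 against 214 to 219 CPM), above them in the alpha panel, and overlap them in the gamma panel.

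Ratios taken within a sample do not depend on how the libraries were scaled. The beta sum was 1.20, 1.25 and 1.23 times the alpha row in the young samples and 0.972, 0.988 and 0.971 times in the aged samples. The ages lay far apart in this ratio relative to the spread within an age (SD 0.0276 and 0.00948). Against the gamma row, the beta sum was 0.403 ± 0.0187 at 6 months and 0.309 ± 0.0392 at 16 months (SD, n = 3), again without overlap. The ratio of the gamma to the alpha row was 3.04 ± 0.0767 in the young and 3.20 ± 0.387 in the aged samples, and it overlapped between the ages. The beta sum was lower at 16 months relative to either row, as a sum over genes that differed unequally between the ages. These ratios hold the values on which the family was picked and support nothing.

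Of the 24 rows, 23 had enough counts to be tested. Pcdhb1, the first gene of the beta cluster and far below the rest, was left out by the filter, with 9, 7 and 11 counts in the young and 5, 3 and 4 counts in the aged samples. A gene was called when its adjusted P was under 0.05 in edgeR's quasi-likelihood test across all 17120 tested genes. The calls made up 1.67% of all tested genes in either direction and 0.888% in the direction of lower levels at 16 months. Of the 23 tested members, 6 were called, all of them beta genes and all lower at 16 months, namely Pcdhb2, Pcdhb3, Pcdhb4, Pcdhb6, Pcdhb8 and Pcdhb9. Since the family was picked with these differences known, nothing is read from that count.

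In each of the called genes, every aged sample lay below every young one. The genes were called on these same values, so the separation supports nothing. Pcdhb8 had the largest difference of the family, with 5.97, 5.90 and 5.17 CPM in the young and 3.05, 2.71 and 3.07 CPM in the aged samples. The means of the ages lay several SDs apart, and the log2 fold change was −0.94 ± 0.10 (SE), or 48.0% lower. Pcdhb2, the first well-expressed gene of the cluster, gave 5.91, 6.40 and 6.98 CPM at 6 months and 3.65, 4.18 and 3.63 CPM at 16 months (log2 fold change −0.75 ± 0.10). Its neighbour Pcdhb3 gave 11.2, 10.1 and 11.2 CPM and then 6.85, 7.66 and 7.26 CPM (−0.58 ± 0.08). Pcdhb4 gave 5.57, 5.40 and 5.48 CPM and then 3.92, 3.73 and 3.51 CPM (−0.56 ± 0.09). In these 3 genes, too, the aged samples lay together and well below the young ones.

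Pcdhb6 was the lowest of the tested beta genes per length, with 3.97, 3.67 and 4.22 CPM in the young and 2.78, 2.74 and 2.87 CPM in the aged samples (−0.50 ± 0.10). Pcdhb9, at the other extreme, was the highest, with 21.4, 20.8 and 22.7 CPM and then 15.3, 15.3 and 16.3 CPM (−0.47 ± 0.06). The called genes therefore included both ends of the range of levels. Between them on the chromosome, Pcdhb5 and Pcdhb7 were not called. Pcdhb5 gave 9.79, 10.8 and 10.6 CPM at 6 months and 7.99, 7.78 and 8.55 CPM at 16 months (−0.35 ± 0.08). Pcdhb7 gave 10.8, 10.8 and 11.1 CPM and then 9.50, 9.95 and 8.37 CPM (−0.23 ± 0.08). In both, every aged sample was below every young one, by a smaller margin than in the called genes. Pcdhb5 passed the threshold in 6 of the 14 alternative settings and Pcdhb7 in 4, all as lower.

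**Figure D2:**
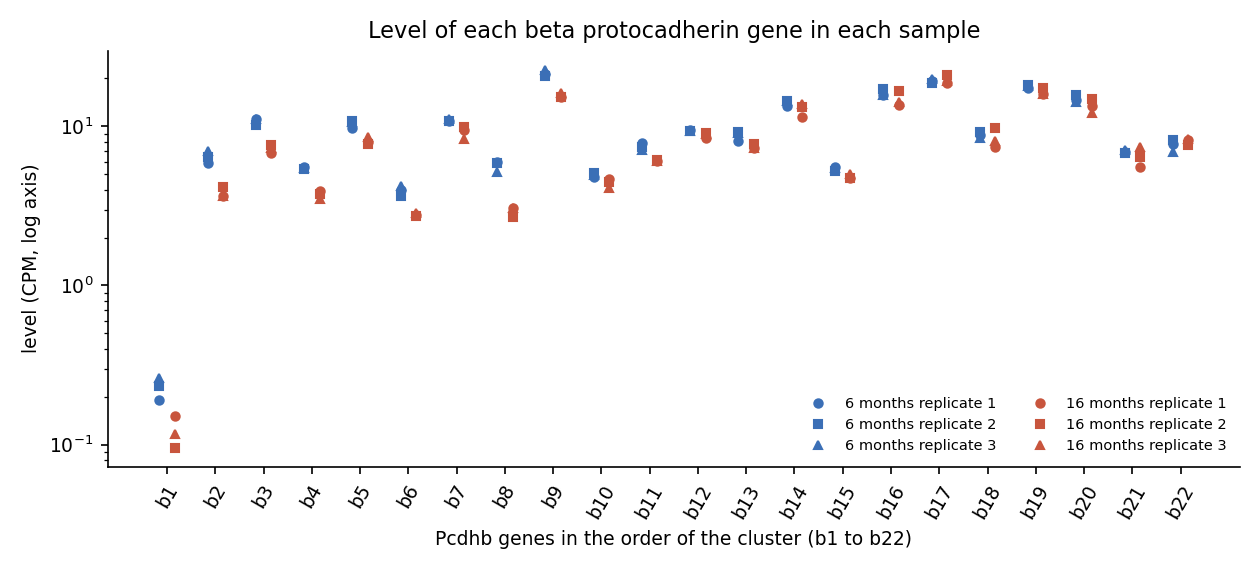
Level of the 22 beta genes in each of the 6 samples, in CPM on a log axis, in their order along the cluster; blue marks are the 6-month and red marks the 16-month samples, with 1 shape per replicate number. The ages are apart from b2 to b9, most widely in b8 (5.17 to 5.97 against 2.71 to 3.07 CPM), and close together or mixed in most of the genes from b14 on.

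How many members were called depended on single samples. The count was 1 without young replicate 3 (Pcdhb8 alone), 2 without young replicate 1 or without aged replicate 3, and 4 without young replicate 2. It was 7 without aged replicate 1 and 9 without aged replicate 2, and 8 without both of these, which were the samples that stood apart by GC content. The number called among all genes moved with it, from 48 to 2211 when 1 sample was left out. Pcdhb8 was called in each of the 14 alternative settings, Pcdhb2 and Pcdhb9 in 12, Pcdhb3 in 11, Pcdhb4 in 10 and Pcdhb6 in 8. The directions of these 6 genes were the same in all 14.

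Of the remaining beta genes, Pcdhb10 to Pcdhb22, none was called (0 of 13 by edgeR, 2 of 13 at an unadjusted P under 0.05, 0 of 13 by DESeq2), and the log2 fold changes ran from −0.29 in Pcdhb11 to 0.09 in Pcdhb22. Pcdhb11 gave 7.81, 7.37 and 7.06 CPM at 6 months and 6.06, 6.16 and 6.03 CPM at 16 months, without overlap. Pcdhb13 gave 8.11, 9.27 and 9.03 CPM and then 7.27, 7.78 and 7.29 CPM, again without overlap, and its log2 fold change of −0.24 ± 0.08 was about that of Pcdhb7. In the alternative settings Pcdhb13 was called in 2 of 14 (both with GC and length offsets), Pcdhb11 in 1 (offsets with the replicate block) and Pcdhb20 in 1 (without aged replicates 1 and 2). Pcdhb17, second to Pcdhb9 in mean level per length over all samples, gave 19.2, 18.8 and 19.7 CPM and then 18.8, 20.9 and 19.2 CPM. Its ages could not be told apart, and the log2 fold change of 0.03 ± 0.06 was within its error. Pcdhb22, the last gene of the cluster and the one with the largest difference upward among the beta genes, gave 7.74, 8.23 and 6.91 CPM and then 8.24, 7.62 and 8.34 CPM (0.09 ± 0.09). Its ages overlapped as well.

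Several of these later genes varied more among the aged than among the young samples. Pcdhb18 gave 8.87, 9.27 and 8.49 CPM at 6 months but 7.42, 9.83 and 8.11 CPM at 16 months, and Pcdhb21 gave 6.87, 6.83 and 7.08 CPM and then 5.58, 6.41 and 7.41 CPM. Both are poor in GC (41.8% and 42.5%), and in both aged replicate 1 was the lowest sample. The highest aged sample was replicate 2 in Pcdhb18 but replicate 3 in Pcdhb21. In Pcdhb19, at 41.2% GC, aged replicates 1 and 3 were alike (15.9 and 15.9 CPM). The part of GC content in these values was not tested. The sign of the small differences of Pcdhb18 and Pcdhb21 turned with the samples used. That of Pcdhb18 was 0.02 without aged replicate 1, and that of Pcdhb21 was 0.09 without aged replicates 1 and 2. Over the tested beta genes the median SD of the log2 level was 0.065 at 6 months and 0.080 at 16 months, beside 0.063 and 0.13 over all tested genes.

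Over the 21 tested beta genes the median log2 fold change was −0.17, beside 0.0014 over all tested genes. The difference was below 0 in 19 of the 21, where 49.7% of all tested genes were below 0. In 14 of the 21 every aged sample was below every young one, where 11.5% of all tested genes showed this. The shares describe a family that was picked on this comparison, and its genes lie side by side in the same samples and are not independent.

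The differences followed the order of the genes along the chromosome. The 8 genes from Pcdhb2 to Pcdhb9 had a median log2 fold change of −0.53 and the 13 from Pcdhb10 to Pcdhb22 one of −0.12. In the first stretch, 8 of 8 genes had no overlap between the ages and 6 were called. In the second stretch 6 of 13 had no overlap. This division was made after the values were seen and has no test. Across the 21 genes, Spearman's rho between position and log2 fold change was 0.855 and Pearson's r was 0.812. The genes share their libraries, and some are neighbours by a few kb or less.

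**Figure D3:**
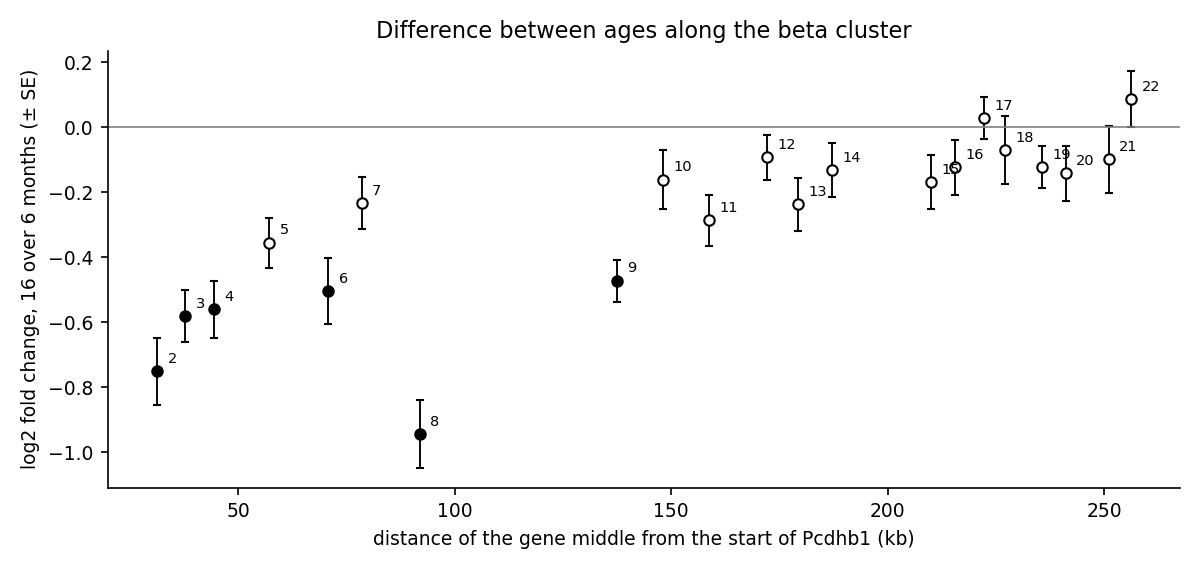
Log2 fold change (16 over 6 months, ± SE) of each tested beta gene against the distance of the middle of the gene from the start of Pcdhb1, in kb; numbers are gene numbers, and filled points are the 6 called genes. The values run from −0.94 (Pcdhb8) to −0.23 (Pcdhb7) up to Pcdhb9, and from −0.29 to 0.09 beyond it, with the widest gap between genes, 42.3 kb, just after Pcdhb8.

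Each aged sample was also set against the mean of the young samples. These 3 comparisons share the same young samples, so they are not independent of each other and are given side by side as values. Spearman's rho between position and the log2 difference over the 21 genes was 0.679, 0.821 and 0.813 in aged replicates 1 to 3. With each young sample set against the other 2 young ones, rho was −0.018, 0.436 and −0.465 in young replicates 1 to 3. Single samples of the same age thus also gave correlations with position, in either direction. The median difference of Pcdhb2 to Pcdhb9 was −0.50, −0.51 and −0.51, and all 8 genes were below the young mean in each of the 3. For Pcdhb10 to Pcdhb22 the medians were −0.20, −0.05 and −0.13, and 12, 8 and 10 of the 13 genes were below it.

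**Figure D4:**
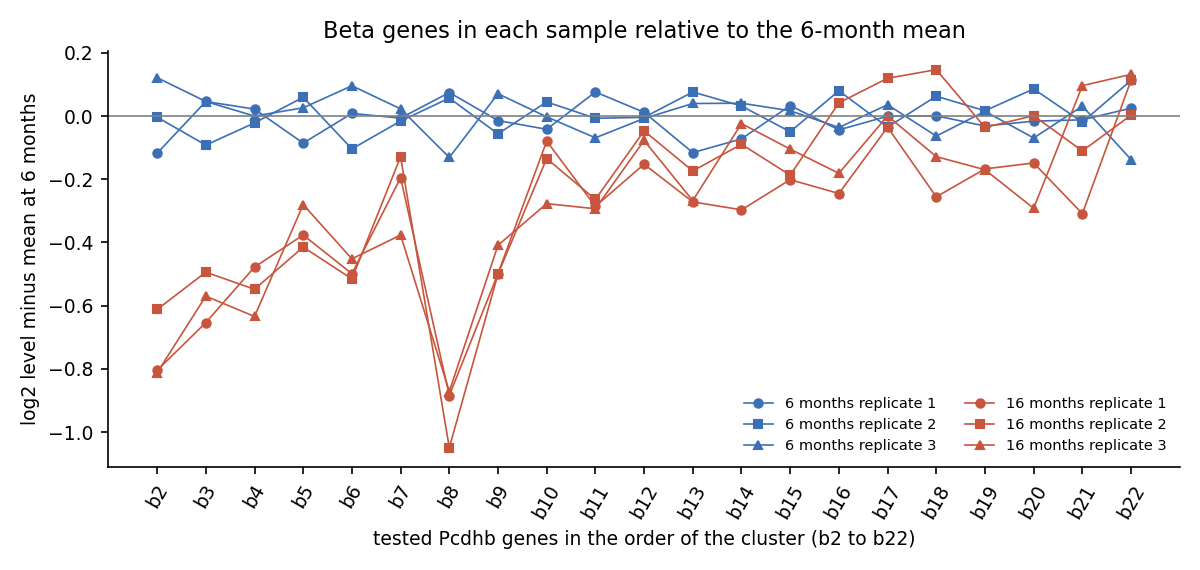
Log2 level of each tested beta gene in each sample minus the mean log2 level of the 3 young samples, in the order of the cluster; blue lines are the 6-month and red lines the 16-month samples. The 3 red lines lie together below 0 from b2 to b9, dip to between −1.05 and −0.87 at b8, and return towards the blue lines from b10 on, where they also spread apart.

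Within the beta cluster the composition shifted accordingly. Pcdhb2 to Pcdhb9 made up 34.8%, 33.8% and 35.5% of the summed beta level in the young samples and 29.7%, 27.9% and 29.1% in the aged ones. The samples of the ages did not overlap in this share (34.7% ± 0.862 against 28.9% ± 0.874, SD, n = 3). In absolute terms the 8 genes summed to 75.3 ± 1.83 CPM at 6 months and 53.5 ± 0.504 CPM at 16 months, which was 28.9% lower. The 13 later genes summed to 142 ± 2.73 and 132 ± 6.92 CPM, which was 6.98% lower.

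Other properties of the beta genes were set beside the fold change as well. Spearman's rho with the log2 fold change was −0.458 for GC content and 0.496 for exon length, over the same 21 genes. Both properties change along the cluster themselves, with rho of −0.587 and 0.523 against position. For the level at 6 months per 1000 exon bases rho was 0.099. With offsets that remove the trend of each library with GC content and length, rho between position and fold change was 0.871, and over all alternative settings it lay between 0.797 and 0.873. Position, GC content and exon length cannot be told apart along this cluster, and the part of each in the differences was not tested.

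Levels of different genes were compared per 1000 bases of exon that belong to no other gene. At 6 months Pcdhb9 was the highest, at 7.09 ± 0.320 CPM per 1000 bases (SD, n = 3), and stood clear of the next genes. Pcdhb20 (4.19 ± 0.231) and Pcdhb17 (4.13 ± 0.102) followed and overlapped each other. Pcdhb7, Pcdhb16 and Pcdhb12 came next, at 3.11, 3.10 and 3.10, and were not distinct. Most of the rest lay between 1.24 and 2.94, Pcdhb6 was at 1.05, and Pcdhb1 at 0.089 was below all others. The tested beta genes thus spanned less than one order of magnitude in level per length.

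At 16 months Pcdhb9 was still the highest, at 5.11 CPM per 1000 bases, followed by Pcdhb17 at 4.21 and Pcdhb20 at 3.79. Of the first stretch, Pcdhb2 went from rank 11 to 17 of the 22 beta genes and Pcdhb8 from rank 16 to 20, which were its largest moves. Pcdhb3 went from rank 8 to 10, Pcdhb7 from 4 to 6 and Pcdhb5 from 7 to 8, while Pcdhb9, Pcdhb4 and Pcdhb6 stayed at ranks 1, 19 and 21. Pcdhb9 was first also when all exon bases or the gene lengths of RefSeq were used, and the order of the 22 genes correlated with that above at a rho of 0.997 and 0.744.

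**Figure D5:**
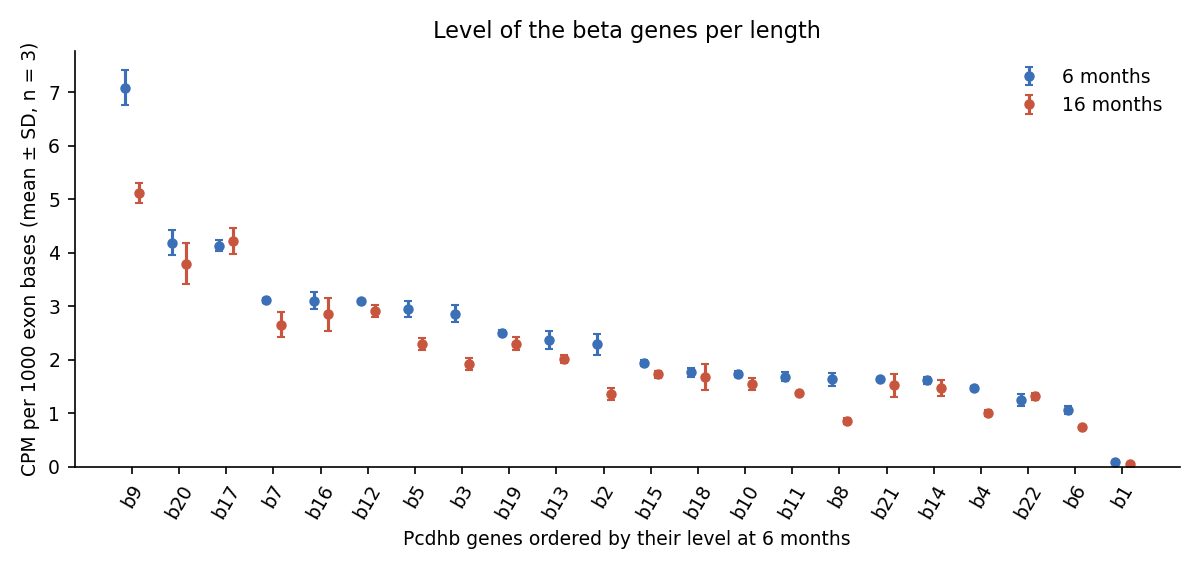
Level of the 22 beta genes per 1000 exon bases (CPM, mean ± SD, n = 3 samples per age), ordered by the level at 6 months, with blue for 6 and red for 16 months. Pcdhb9 stands above all others at both ages (7.09 and 5.11), and the gap between the ages is wide in some genes of every level and narrow in others.

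The genes around the clusters were mostly close to level. Within 1000 kb on either side of the family's rows, 42 other genes were tested, with a median log2 fold change of −0.04. One of them was called, 3222401L13Rik, a noncoding RNA gene between the beta and gamma genes. It gave 4.22, 4.93 and 4.46 CPM in the young and 2.17, 3.09 and 2.93 CPM in the aged samples, without overlap (log2 fold change −0.72 ± 0.14, P adjusted by Benjamini-Hochberg in the edgeR fit = 0.0289). Taf7, a gene of the general transcription machinery that lies after the last beta gene, gave 12.6, 13.5 and 13.3 CPM and then 10.9, 15.0 and 12.5 CPM (−0.03 ± 0.11). Of the genes before the alpha row and after the gamma row, none was called (0 of 21 and 0 of 16 by edgeR, 3 and 3 at an unadjusted P under 0.05, 0 and 0 by DESeq2).

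Protocadherins whose genes lie outside the 3 clusters form another branch of the family. Pcdh1 and Pcdh12 among them lie within the window after the gamma row and are also counted there. Of 12 tested, 1 was called, and the median log2 fold change was 0.10. The called gene, Pcdh20, gave 38.5, 36.9 and 37.5 CPM in the young and 44.0, 50.1 and 45.1 CPM in the aged samples (0.30 ± 0.06, adjusted P = 0.0452, edgeR's quasi-likelihood test). The most abundant of the list, Pcdh1, Pcdh10 and Pcdh9, had log2 fold changes of 0.13 ± 0.10, 0.03 ± 0.05 and 0.06 ± 0.05. Other cadherin relatives of the brain, such as the calsyntenins, the Celsr and Fat genes and classical cadherins, had a median of 0.10, with none called (0 of 20 by edgeR, 8 of 20 at an unadjusted P under 0.05, 0 by DESeq2). Of their most abundant members, Clstn1 was at 0.16 ± 0.08 and Clstn3 at 0.17 ± 0.07 (log2 fold change ± SE), and Celsr2 was at 0.05 ± 0.09. Of these relatives, 1 of 12 and 4 of 20 had a log2 fold change below 0, where 49.7% of all tested genes did.

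Genes for proteins that act on the promoters of the clusters were mostly close to level. The list of 24 held CTCF, the subunits and loaders of cohesin, DNA methyltransferases, TET enzymes and silencing factors. It had a median log2 fold change of −0.003, with none called (0 of 24 by edgeR, 1 of 24 at an unadjusted P under 0.05, 0 by DESeq2). Ctcf itself gave means of 84.8 CPM at 6 months and 91.7 CPM at 16 months (0.11 ± 0.06). Stag2, a cohesin subunit, was the 1 gene at an unadjusted P under 0.05. Its mean was lower at 16 months (149 ± 4.18 against 128 ± 17.8 CPM, SD, n = 3, log2 fold change −0.23 ± 0.09). The young samples gave 145, 150 and 153 CPM and the aged ones 110, 145 and 129 CPM, so the ages nearly met. Rad21, another cohesin subunit, was at −0.02 ± 0.07, and Dnmt3b, a de novo methyltransferase, was at under 1 CPM at both ages (0.953 and 0.903). Smchd1, a silencing factor known to act at these clusters, was at 0.05 ± 0.07.

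Of the kinases, proteases, WAVE complex genes and other partners that bind or act downstream of the protocadherins, 2 of 31 were called, both higher at 16 months. Marcks, a membrane-bound substrate of protein kinase C, gave 161, 167 and 163 CPM in the young and 191, 204 and 196 CPM in the aged samples (0.27 ± 0.05, adjusted P = 0.0287, edgeR's quasi-likelihood test). Ret, a receptor tyrosine kinase, gave 3.78, 3.43 and 3.62 CPM and then 6.15, 5.07 and 5.09 CPM (0.59 ± 0.11, adjusted P = 0.0266, same test). The list had a median log2 fold change of 0.09. Its most abundant members, the WAVE complex genes Cyfip2 and Nckap1 and the catenin gene Ctnnb1, were at 0.06 ± 0.06, 0.07 ± 0.05 and 0.12 ± 0.05. The kinases Ptk2 and Ptk2b, which the constant part of the alpha and gamma proteins is known to inhibit, were at 0.06 ± 0.05 and 0.09 ± 0.06. None of the 3 related genes called, Pcdh20, Marcks and Ret, remained when a young sample or aged replicate 3 was left out (0 related genes called), while 9 and 13 were called without aged replicate 1 and without aged replicate 2.

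Markers of neurons as a class were close to level. The 8 general neuronal markers summed to 8882 to 9086 CPM at 6 months and 8465 to 9640 CPM at 16 months. Their median log2 fold change was 0.07, and none was called (0 of 8 by edgeR, 1 of 8 at an unadjusted P under 0.05, 0 by DESeq2). The 7 interneuron markers summed to 853 to 876 and 883 to 936 CPM, with Pvalb the only one called. The 7 astrocyte markers summed to 5634 to 5963 and 5973 to 6730 CPM. The medians of these lists were 0.07 and 0.15. The 7 microglia markers summed to 340 to 356 and 342 to 363 CPM with a median of −0.13, and the 6 endothelial markers to 145 to 147 and 137 to 142 CPM with a median of −0.09. The median of the tested beta genes was −0.17. What the mix of cells contributes to these values was not tested.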

How the data were processed

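Messenger RNA of 6 cortices was sequenced from paired ends. The authors trimmed the reads, aligned them to mm10 with STAR and counted them per Ensembl gene with HTSeq, whose summary lines end each table. The submitters' processing notes name STAR 2.3.0e and featureCounts 1.5.0-p1 instead. The deposited values are raw counts per gene, without normalization. One label, the housing protocol, calls the younger mice 3 months old. Samples were grouped by the 6 months that the other labels state. Nothing states whether extraction or sequencing was done in batches.

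Identifiers were matched to GENCODE M21 (36602 of 38355). Counts were tested with edgeR 4.0.16 in R 4.3.3 (TMM, filterByExpr, quasi-likelihood test, Benjamini-Hochberg adjustment over 17120 genes, threshold 0.05, no covariates), on all 6 samples. Log2 levels per sample used a prior count of 2. The fit was checked on simulated counts. Near-identical copies were searched with blastn 2.17.0. With 3 samples against 3, an exact permutation test of a single value cannot give a P under 0.1, and none was run. Between 1.42% and 1.57% of reads were ambiguous and stayed uncounted.

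The members and all gene lists were chosen with earlier results of these data known. Values in every sample are given for members past the threshold, for the highest and lowest levels per length, for C-type members and for the largest difference in each direction in each cluster. Further members were named after their values were seen. Of related lists, genes past the threshold and up to 3 of the highest level are named, and CTCF, cohesin, methylation and kinase genes were added by their role. Alternatives were DESeq2's size factors, 2 other filters on low counts, the DESeq2 1.42.0 Wald test, the replicate number as a block, offsets for GC content and length (medians over 20 bins), both together, and each sample left out. Leaving out aged replicates 1 and 2 together, the correlation with position and RefSeq lengths were added after seeing the data.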

Additional observations from a re-analysis of the deposited data

How the results depend on the processing

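The direction of the beta cluster, as a median or as a sum, and of the alpha and gamma rows was the same in every alternative run. The number of members called was 6 in the main fit, 10 with offsets for GC content and length, and 12 with these offsets and the replicate block. Of all tested genes, 1.67%, 14.2% and 19.3% were called in these settings. The counts of members, and of related genes below, therefore do not compare directly between settings. Between 1 and 9 members were called when 1 sample was left out, beside 0.277% to 12.7% of all tested genes. The number of members was 7 with the replicate block alone, with 783 genes (4.57%) called in all. Same-numbered samples share only a number: their deviations correlated at 0.180, 0.0958 and 0.0351. Of related genes, 3 were called, 5 with the replicate block, 23 with the offsets, 32 with the offsets and the replicate block, 0 to 13 without 1 sample, and 14 without aged replicates 1 and 2. The median log2 fold change of the beta cluster was −0.17, with −0.21 without a filter on low counts, −0.20 by DESeq2's Wald test, −0.217 to −0.176 without 1 sample, and −0.28 without aged replicates 1 and 2. Signs turned in 3 beta genes that were not called: Pcdhb17 ran from −0.0192 (without aged replicate 2) to 0.0578 and Pcdhb18 from −0.188 to 0.0151 (without aged replicate 1) when 1 sample was left out. Pcdhb17 was at −0.00473 and Pcdhb21 at 0.0928 without aged replicates 1 and 2. The causes were not tested. Leaving out a sample also changes which genes are tested, and leaving out both leaves 1 aged sample, assumed to vary like the others.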
